A study of Arabidopsis thaliana with 46 samples.

Results

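The data described here are the RNA levels of 200 pseudogene and transposon-derived loci of Arabidopsis thaliana, the most abundant of their kind in whole roots and in protoplasts (cells freed of their walls) made from roots. The count tables of roots, protoplasts and the nitrogen (N) dose assay list 33016 gene IDs, of which 28163 are also listed in the tables of a separate cycloheximide experiment and 4853 are not. From these 4853 candidate IDs, the 200 with the highest mean level over the 16 root and protoplast libraries were kept. Levels are given in CPM, the count of a locus per 1000000 counts of its library. The members were thus chosen by their root and protoplast levels, which are given as a description. In the reference annotation, 4842 of the 4853 candidates were matched to RefSeq genes, 926 as transcribed pseudogenes and 3916 as other pseudogene entries, a type that in this annotation also holds transposon-derived loci. All 200 members were matched, 105 as transcribed pseudogenes and 95 as other pseudogene entries.

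All plants were of the Col-0 ecotype, seedlings grown for 10 days according to the labels, and RNA was sequenced after poly(A) selection. Protoplast_60N, Protoplast_0N, Root_60N and Root_0N are protoplasts and whole roots treated with 60 mM N (20 mM KNO3 and 20 mM NH4NO3) or with 20 mM KCl in place of N, with 4 libraries each. The protoplasts had been transfected with an empty vector (EV) and sorted by fluorescence, so protoplasts and roots differ in wall digestion, transfection and sorting as well as in cell composition, and these cannot be told apart. In the N-dose assay (TGA4_0N, TGA4_5N, TGA4_60N and EV_0N, EV_5N, EV_60N, 3 libraries each) root protoplasts carried either EV or a vector for TGA4, a bZIP transcription factor (TF), fused to a part of the glucocorticoid receptor. In this assay 0N was 20 mM KCl, 5N was 5 mM KNO3 alone and 60N was 20 mM KNO3 with 20 mM NH4NO3, so that the source of N changes along with the dose. All 18 N-dose libraries also received cycloheximide (CHX, 35 µM), which stops translation, and dexamethasone (DEX, 10 µM), which lets the fusion protein enter the nucleus. Roots and protoplasts without CHX and DEX give the background for those libraries. Per the study's methods, cells transfected with a vector were split into wells over the 3 N doses. The libraries of a vector thus share 1 transfection, and p-values between these groups measure the spread between wells. TGA4 and EV libraries differ in transfection as well as in vector, which cannot be told apart.

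Pseudogenes are copies of genes that have lost the ability to encode a working protein, and many are still transcribed, from their own start or from that of a neighbour. Transposons are mostly kept silent in plants by DNA methylation and by small RNAs, through enzymes such as the methyltransferase MET1, the remodeler DDM1 and RNA-directed DNA methylation. RNAs with premature stop codons, which pseudogenes often carry, are substrates of nonsense-mediated decay.

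The libraries held 7835278 to 17478925 counts, and a count of 0 in a library of this depth allows 3 counts, or 0.172 to 0.383 CPM, by counting error alone. TGA4 (AT5G10030) was at 4669 to 6559 CPM in TGA4 libraries and at 31.7 to 63.7 CPM in EV libraries. Among the protoplasts without the TGA4 vector, Protoplast_0N replicate 2 had 165 CPM and Protoplast_60N replicate 1 had 128 CPM of TGA4, against 38.9 to 62.1 CPM in the other 6. The 14 markers of root cell types summed to 138 to 154 CPM in Protoplast_60N and 121 to 145 CPM in Protoplast_0N, against 739.7 to 843 CPM in Root_60N and 740.4 to 856 CPM in Root_0N. The EV and TGA4 libraries had 104 to 159.8 and 75.6 to 113 CPM. None of the 14 was at 0 in a whole group, but the root hair markers COBL9 and EXPA7, the epidermal WER, the meristem marker PLT1 and the xylem marker VND7 averaged under 1 CPM in protoplasts, VND7 with 1.12 CPM in Root_0N. At 0N, 10 of the 14 were lower in protoplasts (against 46% of all genes), 2 higher (against 40.4%) and 2 did not pass the test. The phloem marker APL averaged 35.0 CPM in Protoplast_0N and 19.5 CPM in Root_0N. SUC2, also of phloem, ran the other way, at 24.4 CPM in Protoplast_0N and 43.0 CPM in Root_0N. The endodermal SCR averaged 33.6 CPM in Protoplast_0N and 39.3 CPM in Root_0N, and the endodermal CASP1 23.3 and 125 CPM. The stele marker PHO1 averaged 4.94 CPM in Protoplast_0N and 375 CPM in Root_0N. The 3 shoot markers RBCS1A, LHCB1.1 and LHCB1.3 summed to 0.218 to 1.24 CPM in protoplasts and 20.6 to 139.7 CPM in roots. EV_5N replicate 3 stood apart from the other EV libraries in the members described below, and results that rest on it are given with and without it.

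The members took 1.21% to 1.33% of the counts in protoplast libraries, against 0.304% to 0.332% in root libraries. A single locus made that difference: AT1G79245, annotated as a pseudogene of a winged helix-turn-helix protein, at chr1:29804594-29809514 on the minus strand. It had 9719, 10324, 10187 and 10086 CPM in Protoplast_0N, against 435, 419.9, 569.9 and 438 CPM in Root_0N. At 60N it had 9694, 9716, 9328 and 10032 CPM in protoplasts, against 499.7, 418, 363 and 520.1 CPM in roots. The groups did not overlap, and AT1G79245 alone made up 76.9% to 78.8% of the members' CPM in protoplasts and 11.9% to 17.2% in roots. Without it, the other members summed to 2640.5 to 2972 CPM in protoplasts and 2640.1 to 2825 CPM in roots, ranges that overlap. This holds for CPM, which is scaled by library totals. With the TMM scaling described below, 115 of the 200 members were higher in protoplasts at 0N and 50 lower. Per kilobase of exon, where levels of different genes can be compared, AT1G79245 stood at 1092 CPM over the 16 libraries. Next came AT4G23215 at 134, SADHU1-1 at 125, SADHU5-1 at 74.1 and the mei2-like RNA-binding gene copy ML3 at 44.5 CPM per kilobase. In bulk RNA, fewer cells of a type and less RNA per cell cannot be told apart, here and in the results that follow.

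**Figure D1:**
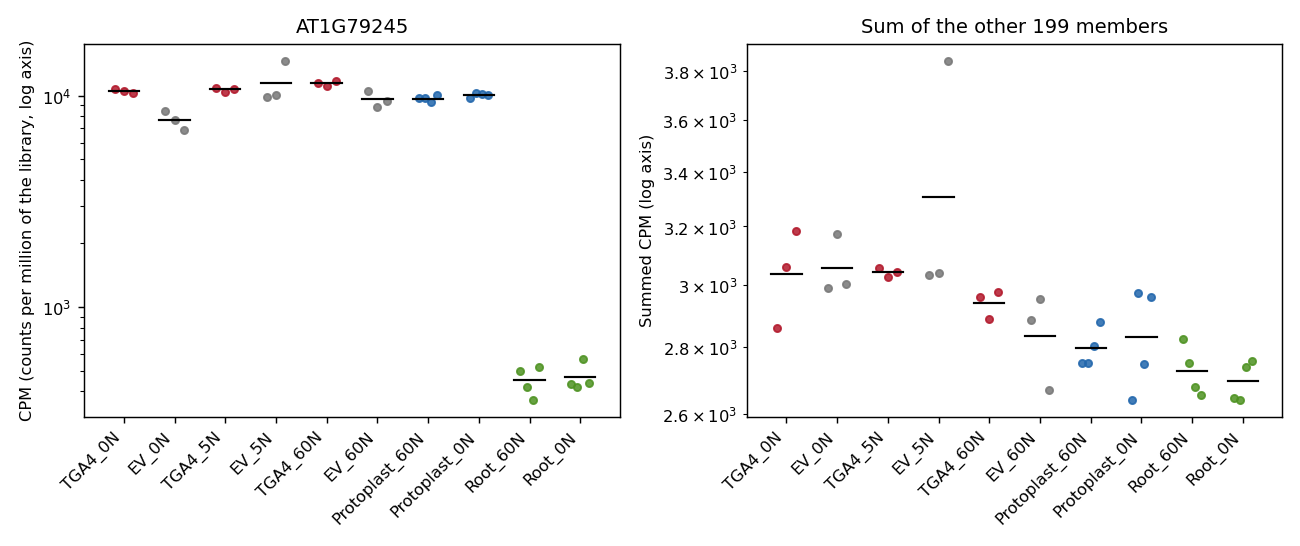
CPM of AT1G79245 (left) and summed CPM of the other members (right) in each of the 34 libraries, on log axes, with 1 point a library, the groups along the horizontal axis and a bar at each group mean. AT1G79245 is at 6889 CPM or more in every TGA4, EV and protoplast library and at 569.9 CPM or less in every root library. On library totals, the other members sum to 2640.1 to 2972 CPM over protoplasts and roots. EV_5N replicate 3 is the highest point in both panels.

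The window around the annotated start of AT1G79245 is shown because this locus carries most of the members' RNA and because it is among the members that differed with TGA4. It covers 250 bases before the start and 50 after it, chr1:29809465-29809764 on the minus strand of TAIR10.1 (sequence from RefSeq). Capitals mark TGACG, the core that TGA factors are known to bind, or its complement CGTCA, searched on both strands.
AT1G79245: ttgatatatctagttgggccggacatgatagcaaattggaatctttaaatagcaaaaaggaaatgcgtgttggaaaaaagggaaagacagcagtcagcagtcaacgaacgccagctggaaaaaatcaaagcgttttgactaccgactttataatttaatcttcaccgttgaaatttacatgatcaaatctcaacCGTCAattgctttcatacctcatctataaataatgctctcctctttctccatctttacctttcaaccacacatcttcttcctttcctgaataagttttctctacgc
The same 5 letters occurred in 22.6% of the 37897 start windows of the annotation, in 37 of the 200 member windows (18.5%) and in 3 of the 22 members called with TGA4 at any N dose (13.6%). A match of 5 letters is a description of the window and says nothing of binding.

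The members lay on all 5 chromosomes, 51, 50, 38, 23 and 38 on chromosomes 1 to 5. Their median level was 6.18 CPM, 70 were above 10 CPM and 4 above 100 CPM. They held 93.0% to 98.4% of the CPM of all candidates, and 2961 candidates had no count in any root or protoplast library. At the edge of the set, the last 2 inside were AT1G32049 at 2.001 CPM and AT4G08991 at 1.99 CPM, and the next 2 outside were the retrotransposon SADHU6-1 at 1.98 CPM and AT2G37830 at 1.97 CPM. Ranked on roots alone, 168 members would have been in the first 200, and on protoplasts alone 169. Of these, 137 were in both, 31 only in the root ranking and 32 only in the protoplast ranking, and a member of the last 2 kinds that entered through the tissue where it was high had to differ between tissues. Of the 200 loci, 48 overlapped another annotated gene, 32 of them a protein-coding one. Strand use in counting is not given in the sources used here, so reads of overlapping genes cannot be told apart.

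By annotation and sequence, the members fell into 6 classes: 94 transcribed pseudogenes of nuclear genes, 67 other pseudogene entries, 17 loci in 5 groups linked by shared 50-base words, 10 loci on chromosome 2 that share at least 50% of these words with the mitochondrial genome, 7 loci with MUSTANG (MUG) or CYTOSLEEPER symbols, and 5 Sadhu retrotransposons. Loci were linked where at least 50% of the words of either one occur in the other, and the groups are called near-identical below. The name is loose for AT5G39245, which shares 10.2% of its words with its partner AT4G05145, against 64.0% the other way. In 93 members no 50-base word occurred elsewhere in the genome, and in 139 under 10% did. In 35 members at least 50% did, so reads from those loci can also come from their copies.

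To see how these loci differ between isolated cells and the organ they came from, protoplasts were compared with roots at each N dose with edgeR's quasi-likelihood test, with Benjamini-Hochberg adjusted p under 0.05 as the threshold. All 200 members passed the filter on low counts. At 0N, 165 of them differed (82.5%, against 86.4% of all 21007 genes tested): 115 were higher in protoplasts (57.5%, against 40.4% of all genes) and 50 lower (25%, against 46%). At 60N, 166 differed (83%, against 85.3% of all genes), 115 higher (against 40.8%) and 51 lower (against 44.5%). Members were chosen on these same libraries, so nothing particular to them is read from these shares. Of the 137 that are among the first 200 in each tissue, 83 were higher (60.6%) and 22 lower (16.1%) at 0N, and 83 higher (60.6%) and 23 lower (16.8%) at 60N, an alternative added after seeing the data. Of the members, 105 were higher at both doses, 44 lower at both, 1 opposite in the 2 doses and 19 called at neither. The median log2 difference was 0.84 over members and -0.15 over all genes at 0N, and 0.76 and -0.12 at 60N.

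These values follow TMM scaling, which sets the bulk of genes as level between libraries. Scaling by library totals instead, an alternative added after seeing the data, lowers the protoplast over root log2 differences by a median of 0.95 at 0N and 0.83 at 60N. With library totals, 71 members were higher and 89 lower at 0N (35.5% and 44.5%, against 24.4% and 64.9% of all genes), and 76 were higher and 83 lower at 60N (38.0% and 41.5%, against 25.8% and 62.1%). Under both scalings, 71 members were higher and 50 lower in protoplasts at 0N, and 76 higher and 51 lower at 60N. At 0N 5 members, and at 60N 4, passed the test in opposite directions under the 2 scalings. CPM values printed here are scaled by library totals, and log2 differences by TMM.

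**Figure D2:**
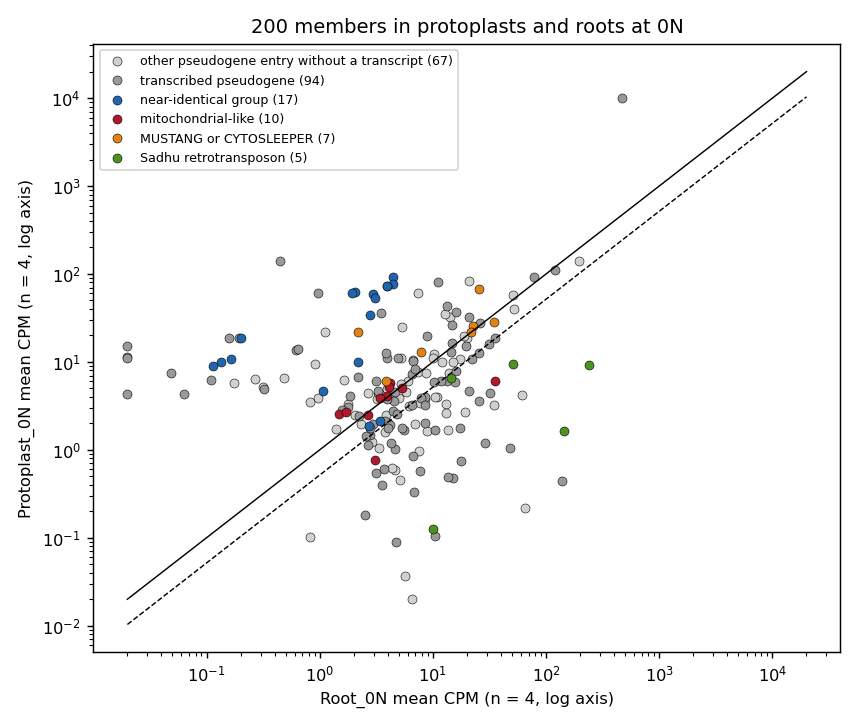
Mean CPM of each of the 200 members in Protoplast_0N (vertical, log axis) against Root_0N (horizontal, log axis), with 1 point a member, colours for the 6 classes and means of 0 drawn at 0.02. The solid line marks equal CPM and the dashed line equal levels after TMM scaling, so members between the lines turn direction with the scaling, while the Sadhu members lie to the lower right and most of the near-identical groups to the upper left of both lines.

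Among the most abundant members, several pseudogenes were higher in protoplasts, and AT4G23215 and AT3G17110 were also low in roots. AT4G23215, a pseudogene of a cysteine-rich receptor-like kinase, a family of cell surface receptors, had 176, 121, 137 and 132 CPM in Protoplast_0N, against 0.545, 0.229, 0.835 and 0.176 CPM in Root_0N. No protoplast library came near a root library, and the log2 difference was 9.30 ± 0.24 (SE) at 0N (adjusted p = 6.63e-19) and 9.86 ± 0.26 at 60N (adjusted p = 1.23e-18). AT3G17110, a glycine-rich protein pseudogene, had 63.1, 70.7, 52.5 and 59.4 CPM in Protoplast_0N, against 1.16, 0.515, 1.25 and 0.937 CPM in Root_0N. Its log2 difference was 6.96 ± 0.23 at 0N and 4.75 ± 0.19 at 60N. AT1G77131, a pseudogene of a glycogenin glucosyltransferase-like protein, had 78.1, 84.6, 78.7 and 82.9 CPM in Protoplast_0N, against 12.6, 9.67, 9.74 and 12.6 CPM in Root_0N, a log2 difference of 3.81 ± 0.13. The pseudogene entries AT3G44205 (log2 difference 4.02 ± 0.11 at 0N) and AT2G13970 (2.96 ± 0.12) were also higher in every protoplast library than in any root library. For AT1G79245 the log2 difference was 5.39 ± 0.18 at 0N (adjusted p = 3.07e-17) and 5.25 ± 0.18 at 60N (adjusted p = 4.78e-17). A locus that entered the set through the tissue where it is high had to differ. The p-values between protoplasts and roots, here and below, are therefore given as a description.

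In roots, a few of these loci had no count at all. AT3G48650, a pseudogene annotated as a pectinesterase relative, had 13.7, 17.2, 16.6 and 13.5 CPM in Protoplast_0N and 0 counts in every root library at either dose, which puts it at least 322-fold higher in protoplasts at 0N and at least 233-fold higher at 60N, against a floor of 3 counts over the root group. AT1G56480, a pectin lyase-like pseudogene (enzymes that degrade wall pectin), had 9.74, 13.3, 11.8 and 11.0 CPM in Protoplast_0N and 0 counts in Root_0N, at least 243-fold higher. AT2G02330, a pseudogene of phloem protein 2-B7, had 11.6, 11.0, 10.8 and 11.0 CPM in Protoplast_0N and 0 counts in Root_0N, at least 235-fold higher. AT3G44717, a pseudogene of a nucleotide-binding protein, was at least 91.6-fold higher at 0N and at least 73.5-fold higher at 60N on the same floor. AT1G35200, a ribosomal protein L4 pseudogene, had 0 counts in Root_60N and was at least 75.7-fold higher in Protoplast_60N. These folds were taken on library totals.

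The other way round, some members were root loci that almost vanished in protoplasts. AT1G54660, a terpene synthase 21 pseudogene (terpene synthases make volatile terpenoids), had 0.291, 0.142, 0.377 and 0.977 CPM in Protoplast_0N, against 144, 143, 143 and 121 CPM in Root_0N, a log2 difference of -7.25 ± 0.22 (adjusted p = 9.02e-18). EXT11, named for the extensins, structural glycoproteins of the cell wall, had 0.218, 0, 0.527 and 0.130 CPM in Protoplast_0N, against 58.8, 81.9, 75.5 and 41.9 CPM in Root_0N, a log2 difference of -7.25 ± 0.39. AT4G16870 (-4.16 ± 0.41 at 60N, with 2 counts in all of Protoplast_0N) and CYP51G2, a copy of obtusifoliol 14-alpha demethylase, a sterol-pathway enzyme (-5.59 ± 0.43 at 0N), were lower in every protoplast library than in any root library. AT1G65485 had 0 counts in Protoplast_0N, against 3.27, 3.55, 13.3 and 6.09 CPM in Root_0N, with Root_0N replicate 3 the highest of its root libraries. On library totals it was at least 120-fold lower in protoplasts. At 60N, AT1G70885, a pseudogene of the MLP-like protein 31, had 0 counts in Protoplast_60N, against 19.4, 10.9, 12.8 and 12.7 CPM in Root_60N. On library totals it was at least 228-fold lower. TMM scaling raises protoplasts over roots 1.94-fold at 0N and 1.78-fold at 60N, so both bounds are smaller with it. AT5G28145 had 0, 0, 0.157 and 0 CPM in Protoplast_60N, against 12.3, 8.38, 10.6 and 12.5 CPM in Root_60N, and its 4 protoplast libraries at 60N held 2 counts together, too few for a fold.

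For 5 of the 20 most abundant members the direction between protoplasts and roots depended on the scaling. AT2G11240, the second most abundant, had 128, 152, 133 and 148 CPM in Protoplast_0N, against 193, 191, 200.01 and 196 CPM in Root_0N. Every protoplast library was thus below every root library in CPM, while the log2 difference after TMM scaling was 0.48 ± 0.09 and with library totals -0.48. At 60N the values were 0.29 and -0.54. The same turn of sign was found for AT1G80020 (0.57 with TMM and -0.38 with library totals at 0N, 0.71 and -0.12 at 60N), for ML3 at 0N (0.84 and -0.11), for the MUSTANG locus MUG4 at 0N (0.66 and -0.30) and for AT3G07280 at 60N (0.60 and -0.23). The other passed tests between protoplasts and roots among the 20 kept their sign under both scalings.

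Transposon families went in opposite directions. Sadhu elements are short non-coding retrotransposons that are known to differ in expression between Arabidopsis accessions. The 5 members of the family summed to 26.9 ± 1.81 CPM in Protoplast_0N and 459 ± 16.6 CPM in Root_0N (SD, n = 4 each), and to 28.2 ± 1.88 CPM in Protoplast_60N and 472 ± 34.6 CPM in Root_60N. SADHU1-1 had 8.73, 10.5, 7.31 and 10.3 CPM in Protoplast_0N, against 230.0, 229, 238 and 260.3 CPM in Root_0N, and a log2 difference of -3.74 ± 0.12 (adjusted p = 3.35e-17). SADHU5-1 had 1.53, 1.84, 1.13 and 2.02 CPM in Protoplast_0N, against 146, 144, 145 and 142 CPM in Root_0N, and a log2 difference of -5.50 ± 0.18. SADHU4-1 had 0 to 0.284 CPM in Protoplast_0N and 9.60 to 10.5 CPM in Root_0N (log2 difference -5.32 ± 0.43). SADHU1-2 had a smaller difference (-1.47 ± 0.09), and SADHU1-3 did not pass the test at 0N (-0.21 ± 0.18, adjusted p = 0.258), although its 4 protoplast libraries were all below its 4 root libraries in CPM. Lower in protoplasts were thus 4 of 5 at 0N (median -3.74, against 46% of all genes lower) and 5 of 5 at 60N (median -3.65, against 44.5%). With library totals it was 5 of 5 at either dose, against 64.9% and 62.1% of all genes at 0N and 60N. The members were chosen on these same libraries, so nothing particular to the Sadhu family is read from these shares.

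A 14-base word that 4 of the 5 Sadhu members share is shown in capitals within 60 bases on the strand where it reads in the same sense (TAIR10.1, RefSeq), from chr2:4006957-4007016 on the minus strand, chr4:660833-660892 on the plus strand, chr1:10967798-10967857 on the minus strand (opposite to the annotated strand of SADHU1-2) and chr5:10632261-10632320 on the plus strand. The word holds only C and T and was found by a search of these same members for a long shared word. Its frequency elsewhere was not counted, so it is no measure of family likeness.
SADHU1-1: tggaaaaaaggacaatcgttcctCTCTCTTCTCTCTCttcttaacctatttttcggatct
SADHU5-1: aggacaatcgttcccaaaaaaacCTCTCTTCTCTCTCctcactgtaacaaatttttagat
SADHU1-2: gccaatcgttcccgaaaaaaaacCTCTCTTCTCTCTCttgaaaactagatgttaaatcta
SADHU1-3: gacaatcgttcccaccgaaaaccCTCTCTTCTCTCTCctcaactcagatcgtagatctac
Of the 10 pairs of Sadhu members, 6 aligned. SADHU1-2 and SADHU1-3 were 77.8% identical over 531 bases and SADHU1-1 and SADHU1-2 70.8% over 788 bases, while SADHU5-1 aligned with the others over 51 bases or fewer.

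**Figure D3:**
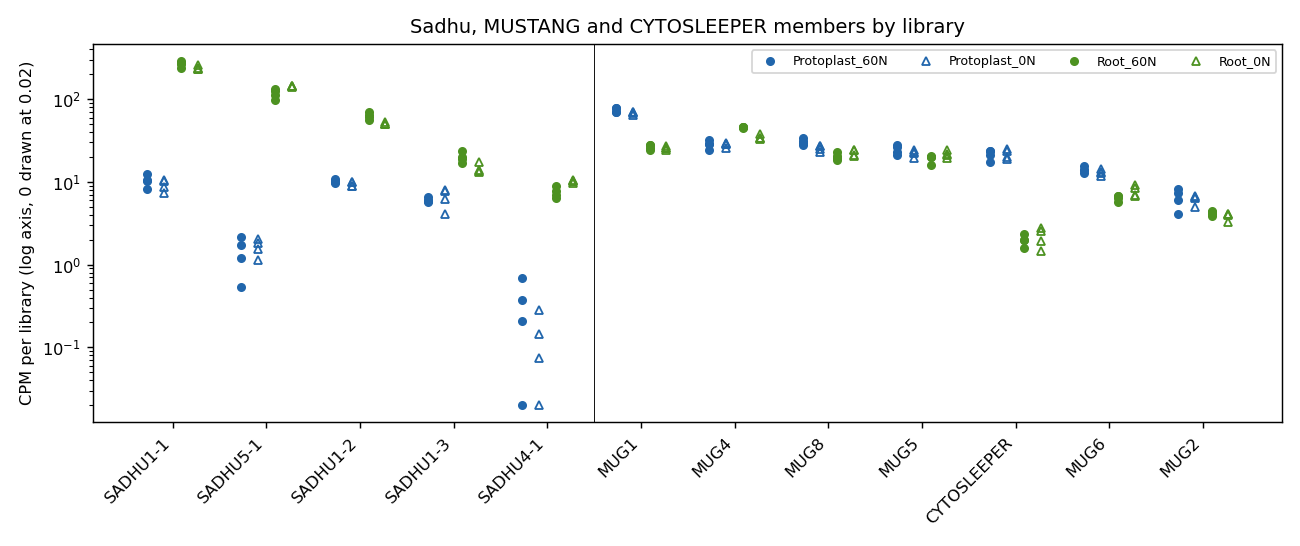
CPM on a log axis of the 5 Sadhu and 7 MUSTANG or CYTOSLEEPER members, with 1 point for each protoplast library (blue) and root library (green), filled circles for 60N, open triangles for 0N, and 0 drawn at 0.02. Sadhu members lie lower in protoplasts, most of the others lie level or higher, and MUG4 lies lower in CPM in protoplasts although its 0N difference is positive after TMM scaling.

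MUSTANG genes descend from Mutator transposases and CYTOSLEEPER from hAT-type transposases. These are families in which a transposase has been kept by plants as an ordinary gene. Their 7 members summed to 185 ± 7.81 CPM in Protoplast_0N and 119 ± 4.51 CPM in Root_0N (SD, n = 4 each), and to 194 to 211 CPM in Protoplast_60N, against 119.9 to 130.2 CPM in Root_60N. MUG1 had 64.5, 69.2, 68.9 and 69.0 CPM in Protoplast_0N, against 25.6, 27.4, 25.8 and 24.4 CPM in Root_0N (log2 difference 2.35 ± 0.08, adjusted p = 5.53e-17). CYTOSLEEPER had 18.9, 25.04, 23.8 and 20.2 CPM in Protoplast_0N, against 2.79, 1.95, 2.57 and 1.46 CPM in Root_0N (log2 difference 4.29 ± 0.17). Neither gene's groups overlapped. MUG4 ran the other way in CPM, with 29.0, 28.5, 24.6 and 31.8 CPM in Protoplast_60N, against 44.7, 45.6, 45.7 and 45.998 CPM in Root_60N. After TMM scaling 7 of 7 were higher in protoplasts at 0N (median 1.62, against 40.4% of all genes higher) and 6 of 7 at 60N (median 1.43, against 40.8%). With library totals 4 were higher and 1, MUG4, lower at 0N (median 0.66), and 6 higher and MUG4 lower at 60N (median 0.61), where 24.4% and 25.8% of all genes were higher at 0N and 60N. MUG8 (1.14 ± 0.10), MUG5 (0.97 ± 0.10), MUG6 (1.70 ± 0.12) and MUG2 (1.62 ± 0.19) made up the rest at 0N with TMM scaling, and MUG8 and MUG5 were the 2 that no longer passed the test there with library totals. Since these loci too were chosen on the same libraries, nothing particular to them is read from the shares.

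The near-identical groups were mostly higher in protoplasts. These 17 loci summed to 652 ± 54.0 CPM in Protoplast_0N and 39.5 ± 4.95 CPM in Root_0N, and to 594 ± 50.9 CPM in Protoplast_60N and 35.8 ± 5.57 CPM in Root_60N (SD, n = 4 each). Of them, 15 were higher at 0N (median log2 difference 5.18) and 17 at 60N (median 4.92), and 15 at each dose with library totals, where 1 was lower at 0N. The share of all genes that were higher was 40.4% and 40.8% at 0N and 60N with TMM, and 24.4% and 25.8% with library totals. Loci low in roots entered the set through their protoplast levels, so nothing particular to these groups is read from the shares. In the group of 7 led by AT5G13205, AT5G13205 itself had 92.0, 100.3, 85.7 and 94.1 CPM in Protoplast_0N, against 4.63, 4.75, 5.50 and 2.93 CPM in Root_0N (log2 difference 5.35 ± 0.15). AT1G11265 (5.18 ± 0.15), AT1G58140 (5.08 ± 0.15) and AT3G61330 (5.17 ± 0.14) of the same group differed by nearly as much. A group of 4 (AT1G57640, AT5G54203, AT4G22040 and AT5G25045) summed to 41.7 to 60.4 CPM in Protoplast_0N and 0 to 1.81 CPM in Root_0N. The members of a group share sequence and therefore reads, so their values are not separate observations. Counting 1 locus per group, an alternative added after seeing the data, left 154 of 188 called at each dose, 104 higher and 50 lower at 0N and 103 higher and 51 lower at 60N.

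How alike these loci are is shown by a stretch that all 7 of the first group hold and by one of the differences within a pair. The first, chr1:3781247-3781296 on the plus strand, occurs at 8 places in the genome. The pair AT1G58889 and AT1G59265 is shown at chr1:21798423-21798482 and chr1:21834681-21834740, both on the minus strand, where a capital marks the base that differs (TAIR10.1, RefSeq).
AT1G11265: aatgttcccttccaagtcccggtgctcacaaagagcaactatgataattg
AT1G58889: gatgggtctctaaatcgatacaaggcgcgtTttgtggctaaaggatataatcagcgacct
AT1G59265: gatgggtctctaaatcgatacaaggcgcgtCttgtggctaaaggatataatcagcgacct
The longest run of bases without a difference in this pair was 3069. The counts of both loci were close to each other in most libraries: the ratio of AT1G58889 to AT1G59265 had a median of 1.02 over the 34 libraries, ranged from 0.996 to 1.27 and was within 5% of 1 in 30 of them.

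**Figure D4:**
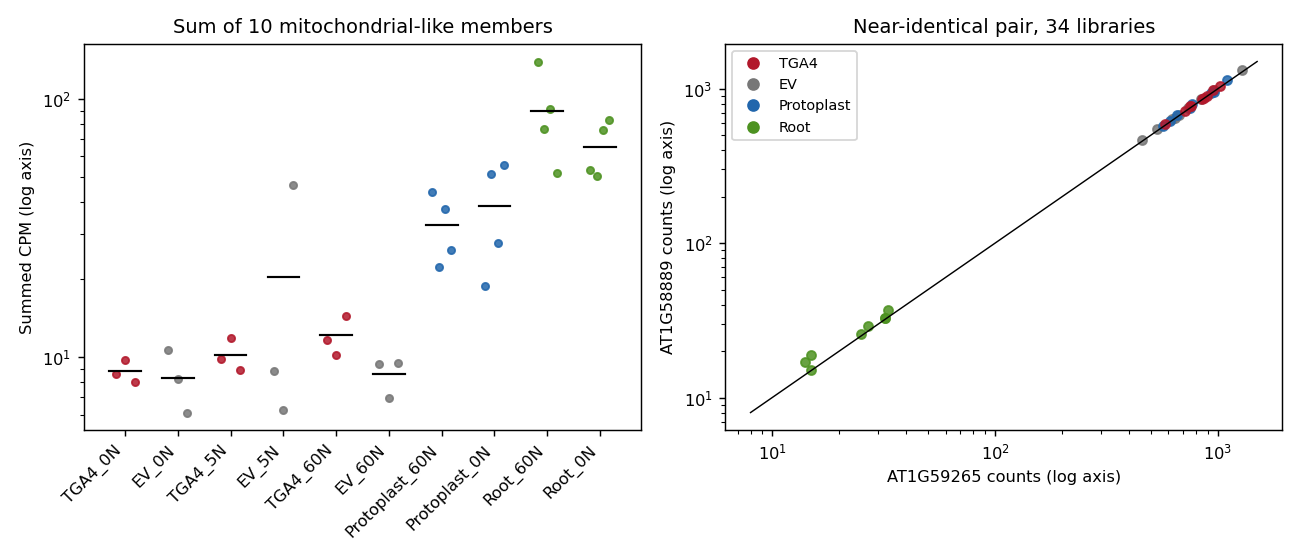
Left, summed CPM of the 10 mitochondrial-like members in each library (log axis, bars at group means), where EV_5N replicate 3 at 46.5 CPM stands among the protoplasts without CHX and not with the other EV and TGA4 libraries. Right, counts of AT1G58889 against AT1G59265 in the 34 libraries (log axes), with the line marking equal counts, on or near which the libraries lie, from 0.996 to 1.27 in ratio.

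The 10 mitochondrial-like members lie within 227 kb of chromosome 2 (3244585 to 3472021), in the copy of the mitochondrial genome that this chromosome is known to carry, and 9 are annotated as pseudogenes of NADH dehydrogenase subunits, ATPase subunit 6-1, a cytochrome c biogenesis gene and intron maturases. The tables list 221 organelle gene IDs and hold 0 counts for them in all 34 libraries, and the reads of mitochondrial transcripts that match these loci cannot be told apart from reads of the nuclear copies. AT2G07783, chosen for display after its values were seen, differs from the mitochondrial genome at 1 of 1504 bases (99.9% identical). That base is in capitals, at chr2:3297913-3297972 on the plus strand and at bases 316036 to 316095 of the mitochondrial genome (TAIR10.1, RefSeq).
AT2G07783: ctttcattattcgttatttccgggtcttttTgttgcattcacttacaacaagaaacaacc
mitochondrial genome: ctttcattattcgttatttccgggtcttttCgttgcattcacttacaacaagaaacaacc
AT2G07783 was the most abundant of the 10, with 1.67, 8.94, 5.50 and 8.01 CPM in Protoplast_0N, against 25.1, 26.0, 44.5 and 46.1 CPM in Root_0N. It was lower in protoplasts, with a log2 difference of -1.60 ± 0.37 at 0N and -2.49 ± 0.39 at 60N. The class summed to 38.4 ± 17.8 CPM in Protoplast_0N and 65.4 ± 16.2 CPM in Root_0N, and to 32.4 ± 9.92 CPM in Protoplast_60N and 89.7 ± 37.0 CPM in Root_60N (SD, n = 4 each). The libraries of a group spread widely, from 18.9 to 55.7 CPM in Protoplast_0N and from 51.9 to 139 CPM in Root_60N. AT2G07663 was lower as well (-1.04 ± 0.36 at 0N), and the other 8 were higher at 0N after TMM scaling, of which 1 still passed the test with library totals. At 60N, 3 were higher and 2 lower with TMM, and 0 higher and 3 lower with library totals.

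Members that share sequence with, or are named after, a counted gene were set beside that gene. This set of 14 was chosen after values were seen, and 6 of them are given here. Here the 50-base words of exons were compared with exons. SADHU5-1 shares 19.3% of these words with AT1G18193, and 58.9% where the introns of AT1G18193 are counted. AT1G18193 averaged 1.56 CPM in Protoplast_0N and 109 CPM in Root_0N, a log2 difference of -5.17 ± 0.19, against -5.50 ± 0.18 for SADHU5-1. AT2G21020, a pseudogene of the aquaporin NIP3;1, had a log2 difference of -4.53 ± 0.20, and NIP3;1 itself -2.61 ± 0.26. AT5G40130 shares 19.3% of its words with the ribosomal protein gene RPL5B, and the log2 differences were -3.62 ± 0.20 for the pseudogene and -3.90 ± 0.13 for RPL5B. AT4G03926 shares 17.4% with the pectin methylesterase gene PMEPCRA, with differences of -4.02 ± 0.23 and -3.32 ± 0.14. AT1G05061, named after the pentatricopeptide repeat gene AT2G32630 but sharing no 50-base word with it, was higher in protoplasts by 5.42 ± 0.27, whereas AT2G32630 did not pass the test at 0N (-0.52 ± 0.41, adjusted p = 0.231). AT4G20730, which shares 13.9% with the meiotic gene ASY2 (15.4% with its introns), was higher in protoplasts by 3.16 ± 0.14 at 0N and 3.27 ± 0.14 at 60N. ASY2 did not pass the test at 0N (0.19 ± 0.18, adjusted p = 0.321) and was higher at 60N (0.52 ± 0.18, adjusted p = 0.0121). Of the pairs not shown, AT2G15120, AT3G62725, AT4G08991, AT3G53403 and AT5G02244 differed from their relatives in call at 0N. AT3G30214, AT3G44717 and AT5G28330 had the same call as theirs. Reads shared between a pseudogene and its relative could be counted for either.

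To follow the N response in the intact organ, Root_60N was compared with Root_0N. Of the 200 members, 46 differed (23%, against 43.2% of all genes): 28 were higher at 60N (14%, against 17.4%) and 18 lower (9%, against 25.7%). The median log2 difference was -0.04 over members and -0.09 over all genes. AT5G28145 had 12.3, 8.38, 10.6 and 12.5 CPM in Root_60N, against 0.681, 0.629, 0.835 and 1.11 CPM in Root_0N, a log2 difference of 3.77 ± 0.30 (adjusted p = 2.09e-09). AT1G35612, a pseudogene of a Ulp1-type protease, had 60.4, 53.4, 48.8 and 48.3 CPM in Root_60N, against 20.6, 15.7, 20.0 and 20.7 CPM in Root_0N, a difference of 1.49 ± 0.15 (adjusted p = 8.21e-08). For both loci every 60N library lay above every 0N library. AT3G17110 (2.31 ± 0.28), AT5G44417, a pseudogene of a FAD-binding berberine-bridge-type oxidase (2.05 ± 0.28), and AT1G70885 (1.60 ± 0.24) also rose with N without overlap of the groups.

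Of the members that fell in roots with N, AT1G54660 had 56.4, 75.9, 77.3 and 56.1 CPM in Root_60N, against 144, 143, 143 and 121 CPM in Root_0N (log2 difference -1.02 ± 0.13, adjusted p = 1.63e-06). AT2G13910, a pseudogene of a cysteine- and histidine-rich C1 domain protein, had 8.54, 7.19, 8.20 and 9.48 CPM in Root_60N, against 16.8, 18.8, 16.8 and 19.1 CPM in Root_0N (log2 difference -1.06 ± 0.21). The groups did not overlap in either locus. CYP51G2 (-0.96 ± 0.24), the ABC transporter pseudogene AT3G30875 (-0.94 ± 0.18) and the mediator subunit pseudogene AT3G30120 (-1.06 ± 0.33) fell too, the last without passing the test when Root_60N replicate 4 was left out (adjusted p = 0.0538). Of the transposon families, SADHU1-2 (0.33 ± 0.08), SADHU1-3 (0.49 ± 0.16) and MUG4 (0.42 ± 0.09) rose, while SADHU1-1 (0.19 ± 0.10, adjusted p = 0.161) and SADHU5-1 (-0.28 ± 0.12, adjusted p = 0.0690) did not pass the test. AT1G79245 did not pass the test either (-0.01 ± 0.15, adjusted p = 0.962).

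In protoplasts, N moved few members: 5 of 200 differed between Protoplast_60N and Protoplast_0N (2.5%, against 2.41% of all genes), 1 higher (against 1.53%) and 4 lower (against 0.876%). AT3G43955 was the 1 that rose, with 6.41, 7.94, 6.13 and 6.51 CPM in Protoplast_60N, against 4.58, 3.48, 3.16 and 4.04 CPM in Protoplast_0N (log2 difference 0.73 ± 0.17, adjusted p = 0.0219). The purine transporter family pseudogene ATPUP20 had 5.06, 8.996, 6.52 and 7.27 CPM in Protoplast_60N, against 14.3, 11.8, 11.8 and 12.4 CPM in Protoplast_0N (log2 difference -0.93 ± 0.20, adjusted p = 0.0121). All 4 of its 60N libraries were below the 0N libraries. AT4G04410 (-1.05 ± 0.23), the ribosomal protein L4 pseudogene AT1G35200 (-0.91 ± 0.21) and AT2G31860, a pseudogene of poly(ADP-ribose) glycohydrolase 2 (-0.83 ± 0.19), fell as well. These calls were close to the threshold. The count fell to 2 without Protoplast_0N replicate 2, one of the libraries with more TGA4, and to 3 without Protoplast_0N replicate 3, Protoplast_0N replicate 4 or Protoplast_60N replicate 3. It was 6 without Protoplast_60N replicate 1. ATPUP20 was the only one of the 5 that passed the test whichever of the 16 libraries was left out.

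The test of the difference itself, the tissue by N interaction, called 28 of 200 members (14%, against 24.4% of all genes), 9 higher in protoplasts relative to roots (against 14.2%) and 19 lower (against 10.2%). With library totals it called 26, 14 higher and 12 lower (against 20.6% and 8% of all genes). AT5G28145 (-5.10 ± 1.21, adjusted p = 0.00366) and AT1G70885 (-5.58 ± 1.83, adjusted p = 0.0325) had the largest interactions among the named members, and both had 0 to 4 counts in each protoplast library, so the size of these 2 fitted values depends on the prior count. AT3G17110, with 9 to 18 counts in each Root_0N library and 48 to 96 in each Root_60N library, rose in roots and had 51.4, 71.8, 74.4 and 81.2 CPM in Protoplast_60N, against 63.1, 70.7, 52.5 and 59.4 CPM in Protoplast_0N, with an interaction of -2.21 ± 0.32 (adjusted p = 2.81e-05). AT4G04410 (-1.41 ± 0.31), AT3G60930 (-1.18 ± 0.24) and AT1G35612 (-1.02 ± 0.27) were lower in the same sense, and AT2G19200, a DUF626 protein pseudogene, was higher (1.28 ± 0.40).

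To ask which members responded to TGA4 in the presence of CHX, TGA4 libraries were compared with EV libraries at each N dose. Of the 200 members, 180 passed the filter on low counts in these 18 libraries, and the other 20, among them AT1G54660, EXT11, SADHU4-1, CYP51G2 and AT5G28145, were not tested. At 0N, 11 of the 180 differed (6.11%, against 8.86% of all 18342 genes tested), 10 higher with TGA4 (against 5.74%) and 1 lower (against 3.13%). At 5N, 6 differed (3.33%, against 7.89%), 3 higher (against 5.41%) and 3 lower (against 2.48%). At 60N, 12 differed (6.67%, against 7.74%), 11 higher (against 5.21%) and 1 lower (against 2.52%). Together 22 members were called at 1 or more doses. TMM raised the TGA4 over EV log2 differences by 0.21, 0.15 and 0.16 at the 3 doses, and with library totals 8 were higher and 8 lower at 0N (against 3.83% and 12.1% of all genes), 2 higher and 9 lower at 5N (against 4.05% and 7.2%), and 6 higher and 6 lower at 60N (against 3.67% and 7.48%).

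AT3G60930, a pseudogene entry on chromosome 3, was the steadiest of them. It had 34.6, 47.2 and 48.3 CPM in TGA4_0N, against 24.3, 27.8 and 23.8 CPM in EV_0N. At 5N it had 59.1, 53.0 and 49.8 CPM in TGA4_5N, against 29.4, 39.8 and 28.9 CPM in EV_5N. At 60N it had 53.8, 55.1 and 70.2 CPM in TGA4_60N, against 32.5, 36.8 and 33.7 CPM in EV_60N. At no dose did the groups overlap, and the log2 difference was 0.99 ± 0.15 at 0N (adjusted p = 0.000168), 0.87 ± 0.15 at 5N (adjusted p = 0.000678) and 0.96 ± 0.15 at 60N (adjusted p = 0.000185). WAKL3, a pseudogene of the wall-associated kinases, receptors that bind wall pectin, had 13.3, 12.6 and 12.1 CPM in TGA4_60N, against 7.50, 7.40 and 6.70 CPM in EV_60N, and was called at all 3 doses (0.74 ± 0.15, 0.78 ± 0.16 and 0.97 ± 0.15 at 0N, 5N and 60N). AT2G31860 was called at 0N (1.23 ± 0.28) and 5N (0.89 ± 0.27, where the libraries overlap), and AT1G22350, a pseudogene of the UDP-glucosyl transferase 85A5, at 0N (1.31 ± 0.34) and 60N (1.37 ± 0.33). PERK2, a copy of a proline-rich extensin-like receptor kinase, was higher at 60N (0.89 ± 0.24). The calls of AT3G60930 at each dose and of WAKL3 at 5N and 60N held when any one library was left out. The 3 doses share 1 transfection of each vector, so a call at several doses is not independent repetition. AT1G22350 lost its call at 0N without EV_0N replicate 1 or 3 or TGA4_0N replicate 2 or 3 (highest adjusted p 0.0848) and at 60N without EV_60N replicate 1 or TGA4_60N replicate 1 (highest adjusted p 0.0978).

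With TMM scaling, fewer members fell with TGA4 than rose at 0N and 60N, and as many fell as rose at 5N. With library totals the members that fell were not fewer at any dose. AT1G56480, the pectin lyase-like pseudogene, had 26.1, 23.4 and 22.5 CPM in TGA4_0N, against 55.7, 55.0 and 46 CPM in EV_0N (log2 difference -0.92 ± 0.18, adjusted p = 0.00155). At 60N it had 22.2, 16.7 and 18.3 CPM in TGA4_60N, against 40.4, 27.7 and 29.2 CPM in EV_60N (-0.61 ± 0.18, adjusted p = 0.0419), and every TGA4 library was below every EV library at both doses. AT4G22020, a glycine-rich protein pseudogene, had 43.1, 40.8 and 28.5 CPM in TGA4_5N, against 75.3, 55.9 and 109 CPM in EV_5N (-0.93 ± 0.22, adjusted p = 0.0111). AT2G23330 (-0.68 ± 0.18) and AT1G05061 (-0.81 ± 0.24), which overlaps the peptide hormone gene CLE20 by 86 bases on the same strand, also fell at 5N. Without EV_5N replicate 3, or without TGA4_5N replicate 3, none of these 3 passed the test at 5N (highest adjusted p 0.0935 for AT4G22020, 0.117 for AT2G23330 and 0.18 for AT1G05061). The 60N call of AT1G56480 was lost in 10 of the 18 fits that left out 1 library (highest adjusted p 0.225), and its 0N call in none.

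Members of near-identical groups made up 4 of the 10 higher calls at 0N and 5 of the 11 at 60N. At 0N these were the whole group of 4, AT4G22040 (0.96 ± 0.25), AT5G54203 (0.93 ± 0.23), AT1G57640 (0.90 ± 0.25) and AT5G25045 (0.86 ± 0.25), and the group summed to 77.5 ± 12.2 CPM in TGA4_0N and 47.6 ± 2.36 CPM in EV_0N (SD, n = 3 each). At 60N they were the pair AT1G58889 (0.90 ± 0.19) and AT1G59265 (0.89 ± 0.19) and AT5G13205, AT1G48710 and AT3G59720 of the group of 7. AT1G58889 had 97.6, 103 and 95.4 CPM in TGA4_60N, against 59.8, 60.1 and 57.1 CPM in EV_60N, values that do not overlap. Without single libraries of TGA4_0N or EV_0N, AT4G22040 and AT5G54203 lost their calls in 4 and 2 of 18 fits (highest adjusted p 0.0895 and 0.0891), with TGA4_0N replicate 2 and EV_0N replicate 2 among them for both. Restricted to members with under 10% of their 50-base words elsewhere, 6 of 124 were called at 0N and 5 of 124 at 60N. Of all genes, 8.86% and 7.74% were called at these doses. AT1G79245 was higher with TGA4 at 0N, with 10751, 10529.7 and 10342 CPM in TGA4_0N, against 8459, 7704 and 6889 CPM in EV_0N (0.66 ± 0.15, adjusted p = 0.00670), and did not pass the test at 60N (0.40 ± 0.15, adjusted p = 0.117) or at 5N (0.05 ± 0.15, adjusted p = 0.885).

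**Figure D5:**
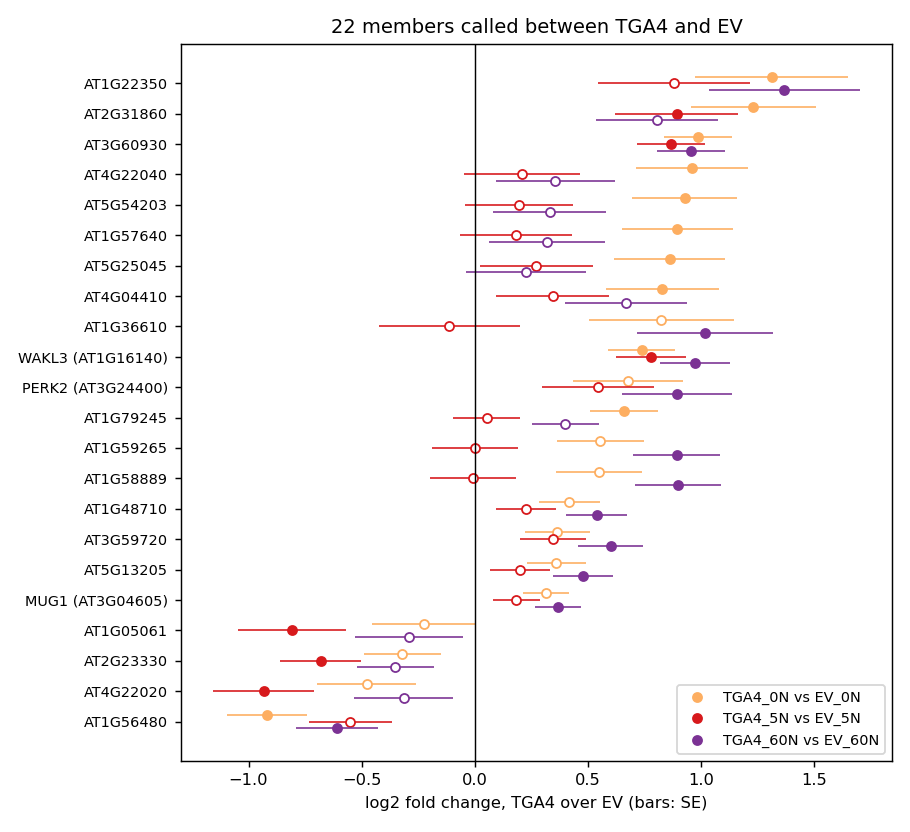
Log2 fold change of TGA4 over EV (TMM scaling, bars are SE) for the 22 members called at 1 or more N doses, with 1 colour a dose and filled points where the adjusted p is under 0.05. Most filled points lie to the right of 0, and AT1G56480, AT4G22020, AT2G23330 and AT1G05061 have their filled points to the left, while with library totals the calls split evenly at 0N and 60N (8 higher and 8 lower, 6 and 6) and 2 higher to 9 lower at 5N.

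Whether the TGA4 effect differed with N dose was tested directly, and 0 of 180 members and 0 of 18342 genes passed (smallest adjusted p 0.605 over all genes). At an unadjusted p under 0.05 there were 8 members and 797 genes, and DESeq2 called 0 members and 4 genes. A call at one dose and not at another is therefore no sign of a difference between doses. EV_5N replicate 3 stood apart within its group: it had 14588 CPM of AT1G79245, against 9810 and 10077 CPM in the other EV_5N libraries, and 46.5 CPM of the mitochondrial-like members, against 8.85 and 6.24 CPM. Without this library, 19 members were called at 0N (17 higher and 2 lower, including the 11), 7 at 5N (6 higher and 1 lower, 3 of them among the 6) and 22 at 60N (20 higher and 2 lower, including the 12). Over all genes 12.2%, 5.95% and 10.6% were then called at 0N, 5N and 60N. Other single libraries moved the counts as well. At 0N, 5 were called without TGA4_0N replicate 2, 7 without TGA4_0N replicate 3 or EV_0N replicate 3 and 18 without TGA4_0N replicate 1. At 5N, 2 were called without TGA4_5N replicate 3, and at 60N, 6 without TGA4_60N replicate 1 or 3 and 7 without TGA4_60N replicate 2.

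Along the N series in EV cells, AT1G79245 had 8459, 7704 and 6889 CPM in EV_0N, 9809.7, 10077 and 14588 CPM in EV_5N and 10469.9, 8883 and 9474 CPM in EV_60N. Between EV_5N and EV_0N, 3 of 180 members differed (1.67%, against 1.59% of all genes), all higher (against 1.04% of all genes higher and 0.556% lower): AT1G58889 (0.98 ± 0.19, adjusted p = 0.0141), its partner AT1G59265 (0.98 ± 0.19) and AT1G79245 (0.69 ± 0.15, adjusted p = 0.0246). None of the 3 was left without EV_5N replicate 3 or without EV_0N replicate 3, and 7 were called without EV_5N replicate 1 and 5 without EV_60N replicate 2. Between EV_60N and EV_0N, 3 members differed (1.67%, against 3.59%), all higher (against 2.3% of all genes higher and 1.3% lower). AT3G60930 had 32.5, 36.8 and 33.7 CPM in EV_60N, against 24.3, 27.8 and 23.8 CPM in EV_0N (0.57 ± 0.15, adjusted p = 0.0418). AT2G44780, a pseudogene of the uclacyanins, small copper proteins, had 11.0, 7.77 and 13.8 CPM in EV_60N, against 5.17, 5.33 and 6.02 CPM in EV_0N (1.1004 ± 0.30, adjusted p = 0.0441). The third, AT1G63040, a pseudogene of a DREB-type ERF/AP2 factor, had 31.5, 100.2 and 50.2 CPM in EV_60N, against 25.1, 31.9 and 26.3 CPM in EV_0N (1.23 ± 0.24), with EV_60N replicate 2 far above the others. It overlaps between groups and is named because the count is small. With library totals, neither AT3G60930 (0.44, adjusted p = 0.102) nor AT2G44780 (0.96, adjusted p = 0.0528) passed the test. Leaving out 1 library took the call of AT3G60930 in 11 of 18 fits (highest adjusted p 0.161) and that of AT2G44780 in 12 of 18 (highest adjusted p 0.263). The 60N count was 1 without any one of EV_0N replicates 1, 2 and 3, EV_60N replicate 3, TGA4_0N replicate 2, TGA4_5N replicates 1 and 2 and TGA4_60N replicates 1 and 2, and 8 without EV_5N replicate 3, EV_60N replicate 1 or EV_60N replicate 2. The TGA4 and EV comparisons share their EV libraries.

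EV cells of the N-dose assay were also set beside the protoplasts without CHX and DEX, which carried the same vector. These libraries differ in CHX, in DEX and in the experiment, which cannot be told apart. Of 185 members that passed the filter, 56 differed at 0N (30.3%, against 29.6% of all 19011 genes tested), 20 higher in EV_0N (against 15.3%) and 36 lower (against 14.3%). At 60N, 29 differed (15.7%, against 15.7%), 13 higher (against 8.98%) and 16 lower (against 6.69%). With library totals 29 were higher and 23 lower at 0N (against 26% and 8.48% of all genes) and 12 higher and 17 lower at 60N (against 6.86% and 8.28%). The protoplast libraries had a part in choosing the members and the EV libraries had none. Nothing particular to the members is therefore read from these shares or from those of the classes below. Without EV_60N replicate 3, 16 differed at 60N. Restricted to members with under 10% of their 50-base words elsewhere, 35 of 125 were called at 0N (against 29.6% of all genes) and 18 of 125 at 60N (against 15.7%). AT2G21020, the aquaporin pseudogene, had 9.28, 7.76 and 5.83 CPM in EV_0N, against 1.02, 0.497, 1.43 and 1.302 CPM in Protoplast_0N (log2 difference 2.67 ± 0.29, adjusted p = 4.20e-06). AT1G56480 had 55.7, 55.0 and 46 CPM in EV_0N, against 9.74, 13.3, 11.8 and 11.0 CPM in Protoplast_0N (2.02 ± 0.19, adjusted p = 1.25e-06). AT4G22020 was higher by 1.82 ± 0.18 at 0N and 1.34 ± 0.18 at 60N, with no overlap of the libraries at either dose, and PERK2 by 1.06 ± 0.27 and 1.32 ± 0.28. AT1G63040 did not pass the test at 0N (0.41 ± 0.29) and was higher at 60N (1.66 ± 0.28). AT2G19200 (1.57 ± 0.40) and AT2G04110 (1.13 ± 0.32) were higher at 0N, the first without passing the test when EV_0N replicate 1 was left out (adjusted p = 0.0832) and the second without EV_0N replicate 3 (adjusted p = 0.104).

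Most of the largest decreases were in the mitochondrial-like class, which summed to 8.35 ± 2.29 CPM in EV_0N (SD, n = 3) and 38.4 ± 17.8 CPM in Protoplast_0N (SD, n = 4). Of these 10 members, 9 were lower in EV_0N (median log2 difference -2.79, against 14.3% of all genes lower) and 8 in EV_60N (median -2.03, against 6.69%), and 9 at each dose with library totals (against 8.48% and 8.28%). AT2G07717, a pseudogene of NADH dehydrogenase subunit 4, had 0.175, 0.194 and 0.740 CPM in EV_0N, against 2.62, 4.19, 2.64 and 6.19 CPM in Protoplast_0N (-3.54 ± 0.47, adjusted p = 3.28e-05). The NADH dehydrogenase 5B pseudogene AT2G07711 (-3.04 ± 0.52), the maturase pseudogenes AT2G07712 (-2.84 ± 0.52) and AT2G07747 (-3.63 ± 0.60) and AT2G07663 (-3.60 ± 0.89) fell alongside it, as did the ATPase subunit pseudogene AT2G07699 at 60N (-2.11 ± 0.38). EV_5N replicate 3, with 46.5 CPM of the class, was the 1 library of the N-dose assay in the range of the protoplasts without CHX, and the TGA4 libraries held 8.05 to 14.5 CPM. The Sadhu and MUSTANG members did not share this decrease: in EV_0N they summed to 30.1 ± 3.56 and 188 ± 14.7 CPM, against 26.9 ± 1.81 and 185 ± 7.81 CPM in Protoplast_0N. AT1G79245 was lower in EV_0N than in Protoplast_0N (-0.56 ± 0.13, adjusted p = 0.00345) and did not pass the test at 60N (0.05 ± 0.13).

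The genes that act on such loci were read from lists of known components. Of 34 genes of transposon silencing, 12 were higher and 14 lower in Protoplast_0N than in Root_0N (median log2 difference 0.03, against -0.15 over all genes, of which 40.4% were higher and 46% lower), and 4 higher and 27 lower with library totals (against 24.4% and 64.9%). Under both scalings the maintenance methylation genes were lower in protoplasts, with MET1 averaging 8.03 CPM in Protoplast_0N and 47.7 CPM in Root_0N (-1.61 ± 0.16), DDM1 2.50 CPM in Protoplast_0N and 21.7 CPM in Root_0N (-2.16 ± 0.17), and VIM1 3.43 CPM in Protoplast_0N and 46.9 CPM in Root_0N (-2.81 ± 0.17). SUVH6, a histone H3K9 methyltransferase gene, was higher (38.8 CPM in Protoplast_0N and 12.2 CPM in Root_0N, 2.63 ± 0.09), as was ATXR5, which encodes an H3K27 methyltransferase (2.99 ± 0.13). ATXR6 of the same list ran the other way, averaging 0.148 CPM in Protoplast_0N and 6.33 CPM in Root_0N. In roots, 0 of the 34 rose and 14 fell with N (against 17.4% and 25.7% of all genes), among them the methyltransferase genes CMT2 (-1.06 ± 0.14) and CMT3 (-0.62 ± 0.15), and 9 had a higher tissue by N interaction (against 14.2%). The nonsense-mediated decay genes UPF1 (1.91 ± 0.09 at 0N), UPF2 (0.86 ± 0.09) and UPF3 (2.17 ± 0.08) were higher in protoplasts at each dose after TMM scaling. In CPM, UPF2 ran the other way, at 67.6 CPM in Protoplast_0N and 72.2 CPM in Root_0N. In TGA4_0N, 3 of 33 silencing genes were higher than in EV_0N with TMM (against 5.74%), and 1 higher and 2 lower with library totals (against 3.83% and 12.1%). The part of these genes in the members' levels was not tested.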

How the data were processed

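Poly(A) RNA of 34 libraries was used, 16 of roots and protoplasts and 18 of the N-dose assay, each deposited as a table of raw counts per gene ID. The 12 libraries of the separate CHX experiment served only for their ID list. The authors aligned reads to TAIR10 with TopHat2 and made these counts with GenomicFeatures and GenomicAlignments, per the study's methods. The annotation version, the strand setting and the handling of reads that match several places are not given in the sources used here, and such handling bears on near-identical and mitochondrial-like loci. A batch term of the study was not fitted, since the labels give no batch.

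The members, gene lists and classes were chosen with earlier results of these data known. From the counts, CPM was computed on library totals of 7835278 to 17478925. Counting error alone allows 3 counts where 0 were seen, and reads without molecular identifiers make this a limit on counting error only. Groups were compared with edgeR 4.0.16 (R 4.3.3; filterByExpr, TMM, quasi-likelihood F test) on all genes, in 1 fit of the 16 libraries, 1 of the 18, and 1 of the 14 libraries of EV_0N, EV_60N and the protoplasts, with Benjamini-Hochberg adjusted p under 0.05 as the threshold. The pipeline was tested on simulated data. The N-dose libraries of each vector come from wells of 1 transfection, whereas roots and protoplasts were separate samples.

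Named were the 20 members with the highest mean CPM, in each comparison up to 5 called members per direction with the largest change and no overlap of libraries, the members on either side of the rank limit, and members with a symbol, with their class. Others are named as chosen after their values were seen: those of near-identical groups, of the mitochondrial-like class and of the set with relatives. Alternatives were DESeq2 1.42.0, no filter, the replicate number as a block, each library left out in turn and members that overlap no other gene. Added after seeing the data were library totals as the scale, 1 member per near-identical group, members among the first 200 of each tissue, members with under 10% shared 50-base words, and sums without AT1G79245. Sequences and classes came from RefSeq (TAIR10.1), with BLAST 2.17.0 for Sadhu pairs, and 50-base words were matched exactly on both strands. The expression of transposon families was not analysed beyond these annotations. One gene of the pathway lists is not reported here.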

Additional observations from a re-analysis of the deposited data

Results flagged for a closer look

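Among 264 groups of 4 libraries tested over the named members, 25 had a single library far from the other 3 (its gap to the nearest, over the whole range, above Dixon's 95% critical value), where chance gives about 1 in 20 groups. In 7 of the 25 the other 3 libraries were at 0, where any count in the fourth gives the highest ratio, and 18 of 248 groups are left without such groups and those at 0 throughout. The leading locus AT1G79245 had 569.9 CPM in 1 Root_0N library, against 419.9 to 438 CPM in the other 3. In Root_0N the highest library stood out as well for PERK2 (4.80 CPM, against 1.16 to 1.54) and for AT1G63040 (0.477, against 0.0696 to 0.117), and the lowest for AT1G54660 (121, against 143 to 144) and AT1G35612 (15.7, against 20.04 to 20.7). In Root_60N the highest library stood out for AT2G07717 (7.39 CPM, against 3.46 to 3.67) and AT1G59265 (1.94, against 1.06 to 1.13), and the lowest for AT2G19200 (4.32, against 6.14 to 6.25). In the same group, AT4G22020 (0.299 CPM), AT2G02330 (0.215 CPM), AT1G56480 (0.0804 CPM) and AT4G22040 (0.0804 CPM) had counts in 1 library and 0 in the other 3.

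In protoplasts at 60N, the lowest library stood out for AT1G63040 (8.78 CPM, against 21.8 to 24.4), AT2G13970 (74.9, against 86.5 to 87.1), AT4G22040 (6.65, against 8.06 to 8.18), AT1G35200 (3.38, against 4.44 to 4.54), AT2G07747 (1.13, against 2.20 to 2.38) and AT1G54660 (0.227, against 0.303 to 0.314). The highest stood out for AT2G07711 (6.82, against 3.48 to 3.93), and AT5G28145 (0.157 CPM) and AT1G65485 (0.103 CPM) had counts in 1 library only. In Protoplast_0N the lowest library stood out for MUG1 (64.5 CPM, against 68.9 to 69.2) and MUG4 (25.7, against 28.9 to 29.2), and the highest for AT5G44417 (0.301, against 0.130 to 0.145) and AT4G16870 (0.145, against 0 in the other 3).

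The N response of 11 named members differed between protoplasts and roots by the interaction test of edgeR (adjusted p under 0.05). On the log2 scale and with TMM scaling, the interaction was -5.58 for AT1G70885 and -5.10 for AT5G28145, both nearly without counts in protoplasts, -2.21 for AT3G17110, -1.41 for AT4G04410, -1.31 for AT2G04110, -1.18 for AT3G60930, -1.02 for AT1G35612, -0.74 for AT1G22350, -0.61 for AT3G07280 and -0.50 for MUG4. AT2G19200 had the opposite sign, 1.28.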

How the results depend on the processing

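The counts of members called between protoplasts and roots, with N in roots, in the tissue by N interaction and between TGA4 and EV kept within 1.5 times under DESeq2 and under the fit with a replicate block, and the exceptions in the other settings follow. DESeq2 called 9 members with N in protoplasts (5 with edgeR), 8 between EV_5N and EV_0N (3) and 7 between EV_60N and EV_0N (3). Without the filter on low counts there were 11 between TGA4_5N and EV_5N (6), 10 between EV_5N and EV_0N and 8 between EV_60N and EV_0N. With library totals there were 11 between TGA4_5N and EV_5N and 5 between EV_60N and EV_0N. With members of under 10% shared words there were 6 between TGA4_0N and EV_0N (11), 5 between TGA4_60N and EV_60N (12), 1 between EV_5N and EV_0N, 35 between EV_0N and Protoplast_0N (56) and 18 between EV_60N and Protoplast_60N (29). With the 137 members among the first 200 of each tissue there were 105 between protoplasts and roots at 0N and 106 at 60N. The cause of these moves was not tested, apart from the smaller number of members in the last 2 settings. Leaving out 1 library at a time gave 161 to 166 and 161 to 167 members between protoplasts and roots at 0N and 60N, 38 to 47 with N in roots, 2 to 6 with N in protoplasts, 22 to 32 for the tissue by N interaction, 5 to 19, 2 to 8 and 6 to 22 between TGA4 and EV at 0N, 5N and 60N, 0 to 7 and 1 to 8 for EV_5N and EV_60N against EV_0N, 39 to 63 and 16 to 31 for EV against protoplasts at 0N and 60N, and 0 throughout for the TGA4 by N interaction. Same-numbered libraries of roots and protoplasts did not deviate together (correlations of -0.12 to 0.07 over 24 pairs). In the N-dose assay the correlations were -0.15 to 0.24 over 45 pairs, with 7 above 0.1. Between EV_0N and EV_60N they were 0.16, 0.24 and 0.18, against -0.08, -0.13 and -0.03 for the best library of another number. Whether the numbers pair those libraries cannot be told from this. With the replicate block, 6 members were called between EV_60N and EV_0N in place of 3, AT1G35200 no longer passed with N in protoplasts (adjusted p = 0.0517), and the other counts stayed within 1.5 times. Of 111 named results, none changed under DESeq2 or without the filter, 7 reversed with library totals between protoplasts and roots (AT2G11240 -0.48 at 0N and -0.54 at 60N, AT1G80020 -0.38 and -0.12, ML3 -0.11 at 0N, MUG4 -0.30 at 0N and AT3G07280 -0.23 at 60N), which follows from the scaling itself, and 7 no longer passed the test, 4 of them between protoplasts and roots and the others AT1G36610 between TGA4_60N and EV_60N (0.87, adjusted p = 0.0576) and AT3G60930 and AT2G44780 between EV_60N and EV_0N (0.44 and 0.96). Across 1774 values with 1 library left out, 96 in 23 of the 111 results lost their call and 0 reversed. Members under about 0.4 CPM are near the limit of a single library.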

Other observations

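Near-identical loci were also followed along the N doses. Over the 3 N-dose conditions of EV cells, the pair AT1G58889 and AT1G59265 summed to 113 ± 29.2 CPM in EV_0N, 207 ± 61.2 CPM in EV_5N and 117 ± 3.46 CPM in EV_60N (SD, n = 3 each), with EV_5N replicate 3 the highest library at 277 CPM. The group of 4 with AT1G57640 summed to 47.6 ± 2.36, 59.9 ± 15.4 and 37.5 ± 15.4 CPM in the same order of doses, so its groups overlap.

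EV_5N replicate 3 had the fewest candidate loci with a count, 534, against 634 to 821 in the other 33 libraries, at 9427990 counts in all.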
